A study of Homo sapiens with 14 samples.

Results

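The FOS and JUN genes encode the subunits of AP-1 (activator protein 1), a dimeric transcription factor. The family was taken as the rows whose gene symbol is FOS, FOSB, FOSL1, FOSL2, JUN, JUNB or JUND, which gave 7 of the 23040 genes listed in each of the 14 deposited libraries. RNA sequencing of total RNA had been done in 2 human pancreatic cancer cell lines, AsPC-1 and Panc-1. In each line, serum-starved cells received epidermal growth factor (EGF, 50 ng/ml) for 1, 5 or 24 h, or angiogenin (ANG/hRNase5, 1 µg/ml) for 1, 5 or 24 h, and 1 untreated (mock) library was made. EGF is the classical ligand of the receptor EGFR, and the series title names ANG, a secreted ribonuclease, as another. The labels do not give the time at which mock cells were taken, nor whether they were starved. Each of the 7 conditions per line had 1 library, so the repeats in every test were the 2 lines, the 6 pairs of line and time, or the 7 conditions, and p-values measure the spread between these libraries.

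AP-1 dimers bind DNA through a basic leucine zipper, FOS proteins only as partners of a JUN protein and JUN proteins also with one another. Growth factor receptors switch on FOS, FOSB and JUN within minutes through ERK and JNK kinases and factors such as SRF and CREB, without new protein synthesis, and the first products are short-lived. FOSL1 (Fra-1) and FOSL2 (Fra-2) come later and last longer, in part because AP-1 acts on the FOSL1 gene itself, while JUNB can restrain JUN and JUND is mostly constitutive. In carcinoma cells with an active RAS and ERK pathway, FOSL1 is known for sustained expression and for target genes of invasion and matrix remodelling.

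Promoter windows of 5 members, the early FOS genes and the JUN genes, are shown so that the elements in them can be compared, among them TGACG, the core of the cyclic AMP response element (CRE) that CREB and ATF proteins bind. The sequences are RefSeq, build GRCh38.p14, on the gene's strand and ending 1 base before the start: FOS chr14:75278678-75278827 (+), FOSB chr19:45467846-45467995 (+), JUN chr1:58784048-58784197 (-), JUNB chr19:12791336-12791485 (+) and JUND chr19:18281623-18281832 (-). Capitals mark TGACG on either strand, the full CRE TGACGTCA, the JUN-type site TGACATCA and the TATA box TATAAA.
FOS: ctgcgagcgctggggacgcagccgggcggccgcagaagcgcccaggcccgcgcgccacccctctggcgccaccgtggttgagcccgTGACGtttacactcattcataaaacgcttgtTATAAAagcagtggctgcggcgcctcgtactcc
FOSB: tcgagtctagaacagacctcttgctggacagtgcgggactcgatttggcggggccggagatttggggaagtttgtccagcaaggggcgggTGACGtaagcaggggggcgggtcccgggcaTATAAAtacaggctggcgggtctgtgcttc
JUN: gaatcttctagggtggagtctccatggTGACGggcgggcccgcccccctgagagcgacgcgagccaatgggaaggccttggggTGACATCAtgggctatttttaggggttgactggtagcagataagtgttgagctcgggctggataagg
JUNB: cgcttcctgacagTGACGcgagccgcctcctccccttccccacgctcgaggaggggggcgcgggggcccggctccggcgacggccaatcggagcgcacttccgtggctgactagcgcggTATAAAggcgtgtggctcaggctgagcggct
JUND: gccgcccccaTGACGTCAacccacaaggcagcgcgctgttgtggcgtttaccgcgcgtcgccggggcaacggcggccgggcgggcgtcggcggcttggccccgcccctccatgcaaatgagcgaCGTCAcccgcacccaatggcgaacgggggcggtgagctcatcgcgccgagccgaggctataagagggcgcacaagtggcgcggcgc
The FOS window has TGACG at -64 and TATAAA at -33 from the start, and FOSB has them at nearly the same places, -60 and -30. In JUNB they lie at -137 and -31. The JUN window has TGACG at -123 and TGACATCA, which ATF2 and JUN dimers bind, at -67. JUND has the full CRE at -200, in which TGACG is read on both strands, and a further TGACG on the opposite strand at -86.

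Of the 7 members, 6 had a RefSeq promoter entry, and FOSL1 was not among them. Within 250 bases before the start, TGACG on either strand was present in 6 of 6 members, FOSL2 included, and in 21.2% of 35116 promoter sequences. The full CRE was in 1 of 6 (JUND) against 1.65% of promoters, and TGACATCA in 1 of 6 (JUN) against 2.38%. TATAAA on the gene strand was in 3 of 6 (FOS, FOSB and JUNB) against 6.80%. The AP-1 element TGANTCA, which holds no TGACG, was in 0 of 6 against 6.57%, and the CArG box bound by SRF in 0 of 6 against 1.16%, which says only that these letters are not in these windows.

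The library depth, inferred from the step in RPKM that 1 read makes, was 18.7 to 23.7 M reads in AsPC-1 and 11.1 to 16.7 M in Panc-1. Levels are in RPKM, reads per kilobase of transcript per M mapped reads. The keratins KRT8, KRT18 and KRT19 were above 250 RPKM in all 14 libraries. EPCAM, an epithelial adhesion protein, was at 149 to 230 RPKM in AsPC-1 and 4.88 to 5.58 RPKM in Panc-1. In the same marker list, KRT7 was at 4.55 to 15.7 RPKM in AsPC-1 and 2.821 to 4.161 RPKM in Panc-1. CDH1 was at 21.27 to 89.33 RPKM in AsPC-1 and 5.86 to 13.45 RPKM in Panc-1. VIM was the highest of the list, at 1269 to 1798 RPKM in AsPC-1 and 2044 to 2755 RPKM in Panc-1. Of 14 markers of blood, vessel, fibroblast, acinar and endocrine cells, 13 were under 1 RPKM in every library, INS and HBB were listed at 0 throughout, and CD68, which many cell types express, reached 39.4 to 92.9 RPKM in AsPC-1 and 28.4 to 46.8 RPKM in Panc-1. The libraries differed in cell cycle genes in opposite ways in the lines. In AsPC-1 the summed level of 14 G2/M genes was 834 RPKM in mock, 61.9 to 153 RPKM at 1 and 5 h and 585 to 731 RPKM at 24 h of either ligand. In Panc-1 it was 314 RPKM in mock, 817 to 994 RPKM at 1 and 5 h and 279 to 345 RPKM at 24 h. In these bulk samples, fewer cells of a kind and less RNA per cell cannot be told apart.

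The whole family was most abundant after 1 h of EGF. In AsPC-1 the summed level of the 7 members was 112 RPKM in mock, 430, 330 and 164 RPKM after 1, 5 and 24 h of EGF, and 180, 219 and 117 RPKM after 1, 5 and 24 h of ANG. In Panc-1 it was 130 RPKM in mock, 343, 212 and 148 RPKM along the EGF course, and 149, 143 and 114 RPKM along the ANG course. EGF thus stood above ANG in 6 of 6 pairs of the same line and time, at a median ratio of 1.49 (1.30 to 2.39), and the 1 h pairs had the highest ratios in both lines.

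**Figure D1:**
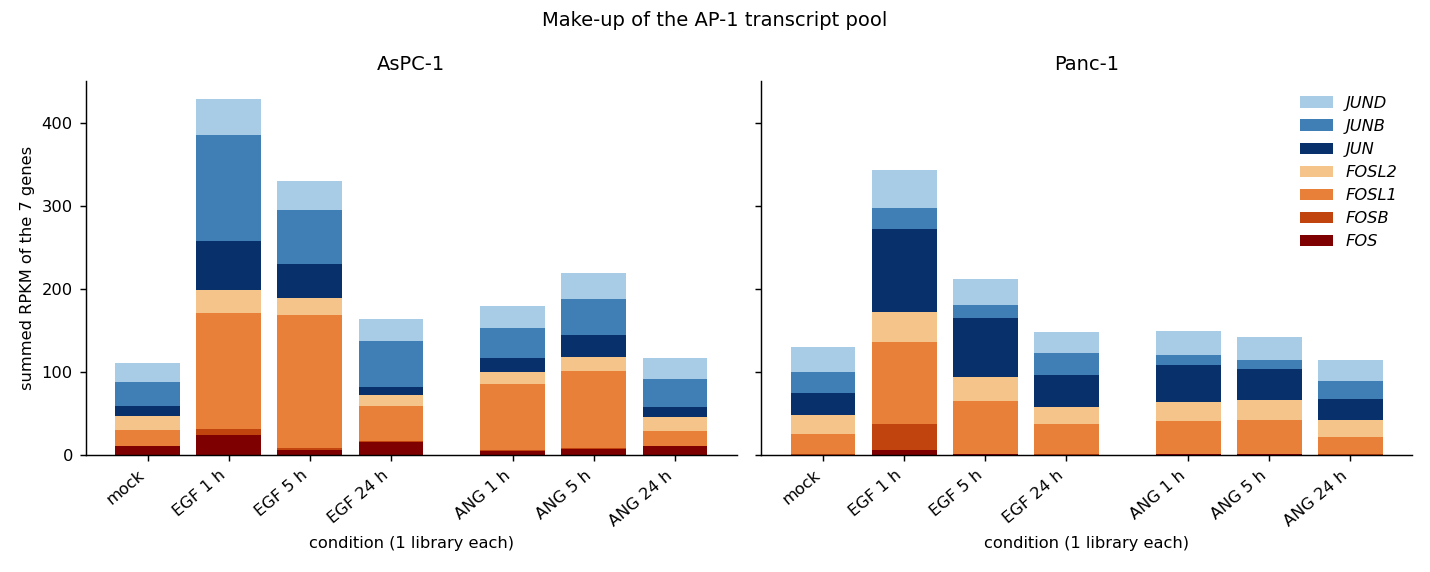
Stacked bars give the summed RPKM of the 7 AP-1 genes in each library, AsPC-1 on the left and Panc-1 on the right, with 1 library per bar and FOS genes in orange and red, JUN genes in blue. The EGF 1 h bars are the tallest in both lines, at 430 RPKM in AsPC-1 and 343 RPKM in Panc-1, and JUNB is the wider blue band in AsPC-1 while JUN is in Panc-1.

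FOS genes and JUN genes held similar shares of this pool, and the lines differed in which genes filled it. FOS, FOSB, FOSL1 and FOSL2 together made up 38.7 to 57.5% of the summed RPKM in AsPC-1 and 36.7 to 50.2% in Panc-1. FOSL1 alone was 15.6 to 48.7% of the pool in AsPC-1 and 18.0 to 29.8% in Panc-1. JUNB held 19.7 to 34.1% in AsPC-1 against 7.26 to 19.4% in Panc-1, and JUN held 5.37 to 13.9% in AsPC-1 against 20.8 to 33.4% in Panc-1. In order of level, JUNB led the mock library of AsPC-1 (29.1 RPKM) and JUND that of Panc-1 (30.1 RPKM), but in Panc-1 mock JUND, JUN, JUNB, FOSL1 and FOSL2 all lay between 22.2 and 30.1 RPKM, and with 1 library their order has no replicate check. FOSB was lowest in 13 of the 14 libraries, the exception being Panc-1 after 1 h of EGF, where FOS was.

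After 1 h of EGF, 3 of the 7 members rose against mock in the limma test with Benjamini-Hochberg adjustment, FOSB, FOSL1 and JUN. Over all 13427 genes tested, 0.663% passed in either direction, 0.209% as higher and 0.454% as lower. All 7 members were above mock in each line, and 6 of 7 had their highest level of any condition there. The exceptions were FOSL1 in AsPC-1, highest at 5 h of EGF, and JUNB in Panc-1, highest at 24 h of EGF. After 5 h of EGF, FOSL1 and JUN were past the test, 2 of 7 against 4.22% of all genes (0.596% higher and 3.63% lower). After 24 h of EGF 0 of 7 passed, as did 0% of all genes, with 0 members and 961 genes at an unadjusted p under 0.05.

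These calls lay close to the threshold and depended on the settings, while the direction did not. At 1 h of EGF, where 89 genes passed in all, 0 of 7 members passed with a pseudocount of 0.1 or with no filter on low values (52 genes in all under each) and without the 24 h libraries (0 genes). The count was 1 of 7 (FOSL2) after centring each library on its median (35 genes), 4 of 7 without genes spanning under 400 bp (131 genes) and 2 of 7 without the trend of variance (79 genes). When 1 library was left out, no gene passed at all in 11 of 14 fits. FOSB kept its call only without the AsPC-1 EGF 1 h library, JUN only without either EGF 24 h library, and FOSL1 in none of 14 fits. At 5 h, FOSL1 kept its call without any of the 24 h libraries in turn, and JUN without either EGF 24 h library, and both lost it in the other leave-one-out fits. The median over all genes was -0.12 at 1 h and -0.16 at 5 h of EGF on the log2(RPKM + 1) scale. After centring, the 1 h log2 fold changes were 3.79 for FOSB, 2.54 for FOSL1 and 2.16 for JUN, with adjusted p = 0.0507, 0.0669 and 0.0507. The G2/M genes were lower at 1 and 5 h than in mock in AsPC-1 and higher in Panc-1, as given above, and their part in these differences was not tested.

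**Figure D2:**
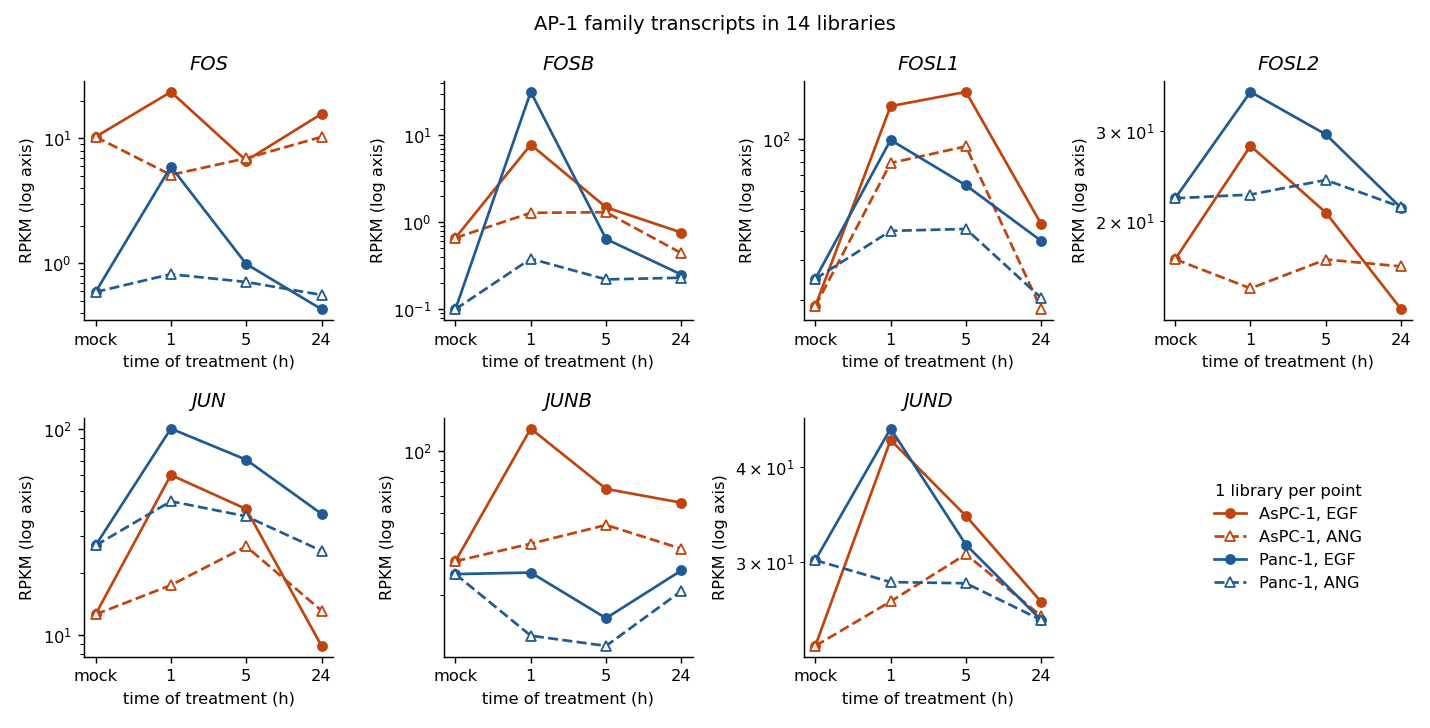
Each panel gives 1 member's RPKM on a log axis in mock and after 1, 5 and 24 h, with EGF as filled circles and ANG as open triangles, AsPC-1 in orange and Panc-1 in blue, 1 library per point. FOS and FOSB spike at 1 h of EGF, FOSL1 and JUN stay up at 5 h, and JUNB separates the lines.

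FOS (chr14:75745481-75748937, plus strand, hg19) encodes the founding and most transient subunit. In AsPC-1, FOS measured 10.3 RPKM in mock, 23.6, 6.65 and 15.7 RPKM after 1, 5 and 24 h of EGF, and 5.11, 6.94 and 10.3 RPKM after 1, 5 and 24 h of ANG. In Panc-1, FOS measured 0.59 RPKM in mock, 5.95, 0.99 and 0.43 RPKM along the EGF course, and 0.82, 0.71 and 0.56 RPKM along the ANG course. The EGF 1 h library was highest in both lines, and by 5 h the level was 28.2% of that at 1 h in AsPC-1 and 16.6% in Panc-1. Its log2 fold change at EGF 1 h against mock was 1.63 ± 0.42 (SE), adjusted p = 0.114, and did not pass. In AsPC-1, the mock and 24 h libraries were above the ANG 1 and 5 h libraries and also above the EGF 5 h library. In Panc-1 all ANG and mock values were under 1 RPKM.

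FOSB (chr19:45971253-45978437, plus strand, hg19), a FOS relative induced alongside it, had the steepest course. In AsPC-1, FOSB measured 0.66 RPKM in mock, 7.76, 1.48 and 0.76 RPKM after 1, 5 and 24 h of EGF, and 1.28, 1.30 and 0.44 RPKM after 1, 5 and 24 h of ANG. In Panc-1, FOSB measured 0.10 RPKM in mock, 31.3, 0.64 and 0.25 RPKM along the EGF course, and 0.38, 0.22 and 0.23 RPKM along the ANG course. FOSB therefore stood out in 1 library of each line, and the Panc-1 level at EGF 1 h was the higher of these. It rose at EGF 1 h against mock by 3.64 ± 0.59 log2 units (adjusted p = 0.0438), a value of 4.88 without the AsPC-1 EGF 1 h library and 2.40 without that of Panc-1 (adjusted p = 0.124). At 5 h of EGF it was 19.1% of its 1 h level in AsPC-1 and 2.04% in Panc-1. On the log2(RPKM + 1) scale this was a difference of -3.06 ± 0.59, the lowest of all 13427 genes for EGF 5 h against EGF 1 h, with an adjusted p of 1. It was -4.30 (adjusted p = 0.00219) without the AsPC-1 EGF 1 h library and -1.82 (adjusted p = 0.402) without that of Panc-1, each then resting on a single library at EGF 1 h. For that time step 0 of 7 members and 0% of all genes passed in limma, with 4 members (FOS, FOSB, FOSL2 and JUND, all lower at 5 h) and 196 genes at an unadjusted p under 0.05.

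FOSL1 (chr11:65659692-65667997, minus strand, hg19) was high at both 1 and 5 h of either ligand. In AsPC-1, FOSL1 measured 18.9 RPKM in mock, 139, 161 and 42.9 RPKM after 1, 5 and 24 h of EGF, and 79.0, 93.3 and 18.3 RPKM after 1, 5 and 24 h of ANG. In Panc-1, FOSL1 measured 24.8 RPKM in mock, 99.5, 63.2 and 36.3 RPKM along the EGF course, and 40.1, 40.9 and 20.5 RPKM along the ANG course. In both lines the 1 and 5 h libraries of either ligand were above mock, and so was EGF at 24 h, while ANG at 24 h was slightly below it. FOSL1 rose against mock by 2.39 ± 0.41 log2 units at 1 h of EGF (adjusted p = 0.0499) and by 2.17 ± 0.41 at 5 h (adjusted p = 0.0319). At 24 h of EGF the difference was 0.84 ± 0.41 (adjusted p = 0.694).

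FOSL2 (chr2:28615779-28637516, plus strand, hg19), the other late FOS relative, had a narrow range. In AsPC-1, FOSL2 measured 16.9 RPKM in mock, 28.0, 20.8 and 13.5 RPKM after 1, 5 and 24 h of EGF, and 14.8, 16.9 and 16.4 RPKM after 1, 5 and 24 h of ANG. In Panc-1, FOSL2 measured 22.2 RPKM in mock, 35.7, 29.5 and 21.2 RPKM along the EGF course, and 22.6, 24.1 and 21.3 RPKM along the ANG course. The EGF 1 h library was highest in both lines and the ANG libraries stayed near mock. At EGF 1 h the log2 fold change was 0.68 ± 0.12 with adjusted p = 0.0516, and it was 0.83 with adjusted p = 0.0488 after centring each library and 0.72 with adjusted p = 0.0425 without genes spanning under 400 bp.

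JUN (chr1:59246463-59249785, minus strand, hg19), a partner of the FOS proteins in AP-1, rose at 1 and 5 h of EGF, as FOSL1 did. In AsPC-1, JUN measured 12.5 RPKM in mock, 59.7, 40.8 and 8.80 RPKM after 1, 5 and 24 h of EGF, and 17.4, 26.8 and 13.1 RPKM after 1, 5 and 24 h of ANG. In Panc-1, JUN measured 27.1 RPKM in mock, 100.4, 70.8 and 38.6 RPKM along the EGF course, and 44.5, 37.6 and 25.5 RPKM along the ANG course. Its level at 5 h of EGF was 68.3% of that at 1 h in AsPC-1 and 70.6% in Panc-1, and at 24 h it was below mock in AsPC-1 and above it in Panc-1. The log2 fold change against mock was 2.01 ± 0.32 at 1 h (adjusted p = 0.0438) and 1.49 ± 0.32 at 5 h (adjusted p = 0.0426).

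JUNB (chr19:12902310-12904125, plus strand, hg19), which can oppose JUN, stood at 4.39 times mock at EGF 1 h in AsPC-1 and 1.02 times mock in Panc-1, values of 1 library each whose difference was not tested. In AsPC-1, JUNB measured 29.1 RPKM in mock, 128, 65.2 and 55.9 RPKM after 1, 5 and 24 h of EGF, and 35.4, 43.6 and 33.4 RPKM after 1, 5 and 24 h of ANG. In Panc-1, JUNB measured 25.2 RPKM in mock, 25.6, 15.4 and 26.2 RPKM along the EGF course, and 12.7, 11.3 and 20.9 RPKM along the ANG course. Every treated AsPC-1 library was above mock, whereas in Panc-1 every ANG library and the EGF 5 h library were below it. The additive model averages these lines, and its log2 fold change at EGF 1 h against mock was 1.06 ± 0.47 (adjusted p = 0.294).

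JUND (chr19:18390563-18392432, minus strand, hg19), the constitutive member, varied least between lines. In AsPC-1, JUND measured 23.2 RPKM in mock, 43.4, 34.5 and 26.5 RPKM after 1, 5 and 24 h of EGF, and 26.6, 30.7 and 25.4 RPKM after 1, 5 and 24 h of ANG. In Panc-1, JUND measured 30.1 RPKM in mock, 44.9, 31.6 and 25.1 RPKM along the EGF course, and 28.2, 28.1 and 25.1 RPKM along the ANG course. EGF at 1 h was highest in both lines, with a log2 fold change against mock of 0.72 ± 0.14 (adjusted p = 0.0633). JUN, JUNB and JUND each have 1 exon in GENCODE 29, so their reads could be estimated from the span, at 582 to 5012 for JUN, 266 to 4846 for JUNB and 597 to 1696 for JUND per library. The 95% Poisson interval of these counts reached, as the mean of its lower and upper sides, at most 12.2% of the value. It covers counting error only.

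EGF was then set against ANG at the same line and time, a contrast without mock. Over the 6 pairs, FOSL1 was the 1 member of 7 past the limma test, where 0.156% of all genes passed in either direction, 0.142% as higher and 0.0149% as lower. EGF exceeded ANG for FOSL1 in 6 of 6 pairs, by ratios of RPKM between 1.55 and 2.48 (median 1.77). Its mean difference was 0.91 ± 0.092 log2 units (adjusted p = 0.0193), the third smallest p of all genes. FOSL1 lost the call with adjusted p = 0.107 when genes of low level were kept, 0.340 without the block of the pair and 0.106 over the 4 pairs at 1 and 5 h. It also lost the call without any 1 of the 6 treated Panc-1 libraries or of the 2 AsPC-1 libraries at 5 h, at differences of 0.84 to 0.97. In these settings no gene passed at all, except 1 without the block.

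The other 6 members did not pass over these pairs. JUNB was also higher with EGF in 6 of 6 pairs, at ratios of 1.26 to 3.61, and its mean difference of 0.80 ± 0.18 had an adjusted p of 0.132. FOSB was higher with EGF in 6 of 6, at ratios of 1.09 to 82.4, with 1.22 ± 0.56 and adjusted p = 0.325. Its lowest ratio was of 0.25 to 0.23 RPKM, in Panc-1 at 24 h, where few reads stand behind either value. The highest ratio, in Panc-1 at 1 h, was over 0.38 RPKM with ANG. JUN was higher in 5 of 6 pairs, the exception being AsPC-1 at 24 h, where it measured 8.80 RPKM with EGF and 13.1 RPKM with ANG, and its mean difference was 0.74 ± 0.24 (adjusted p = 0.223). FOS and FOSL2 were higher with EGF in 4 of 6 pairs, with mean differences of 0.76 ± 0.31 (adjusted p = 0.288) and 0.30 ± 0.14 (adjusted p = 0.320). JUND was higher in 5 of 6, with 0.29 ± 0.10 (adjusted p = 0.250).

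**Figure D3:**
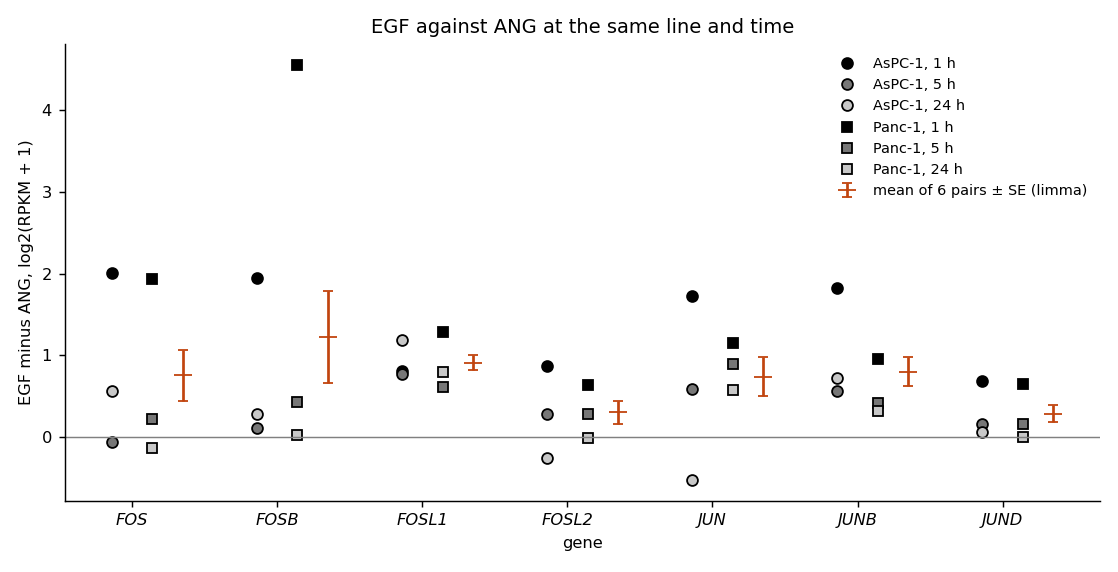
Points give the EGF minus ANG difference in log2(RPKM + 1) for each of the 7 members in each of 6 pairs, circles for AsPC-1 and squares for Panc-1, darker for earlier times, and the orange marks give the mean of the 6 pairs with its standard error. FOSL1 differences lie between 0.62 and 1.29, JUNB differences between 0.32 and 1.82 and JUND differences between -0.0006 and 0.69. JUN and FOSL2 fall below 0 in AsPC-1 at 24 h, at -0.52 and -0.26.

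In both lines the EGF minus ANG difference was highest at 1 h for the 6 members other than FOSL1, and in Panc-1 also for FOSL1. At 1 h, 0 of 7 members passed the limma test of EGF against ANG, against 0.0223% of all genes, yet 7 of 7 had an unadjusted p under 0.05, against 179 of 13427 genes. The log2 differences were 1.97 ± 0.42 for FOS, 3.25 ± 0.59 for FOSB, 1.05 ± 0.41 for FOSL1 and 0.76 ± 0.12 for FOSL2. They were 1.44 ± 0.32 for JUN, 1.39 ± 0.47 for JUNB and 0.67 ± 0.14 for JUND, and the adjusted p ranged between 0.286 for FOSL2 and 1. FOSB had 4.48 (adjusted p = 0.00161) without the AsPC-1 EGF 1 h library and 2.01 (adjusted p = 0.210) without that of Panc-1, each leaving 1 library at that condition. At 5 h, 0 of 7 members and 0% of genes passed, with FOSL2 and JUN at an unadjusted p under 0.05, among 233 genes. FOSL1 differed there by 0.70 ± 0.41 and JUN by 0.74 ± 0.32, both with an adjusted p of 1. At 24 h, 0 of 7 and 0% of genes passed, and FOSL1, at 0.99 ± 0.41 with an adjusted p of 1, was the 1 member at an unadjusted p under 0.05, among 548 genes.

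Whether the ligand difference depends on time was tested as the 1 h difference minus the 24 h difference. It was 1.75 ± 0.26 for FOS, 3.09 ± 0.74 for FOSB, 0.89 ± 0.16 for FOSL2 and 1.41 ± 0.37 for JUN, but 0.06 ± 0.21 for FOSL1. Here 0 of 7 members passed in limma, against 0.00745% of all genes, and 6 members, all but FOSL1, had an unadjusted p under 0.05, among 650 genes. The value for FOSL1 was -0.0056 after centring and between -0.18 and 0.30 when 1 library was left out. The dependence on line was tested in the same way, and 0 of 7 members and 0% of genes passed, with 0 members and 1040 genes at an unadjusted p under 0.05. For JUNB the EGF minus ANG difference in AsPC-1 exceeded that in Panc-1 by 0.47 ± 0.34 (adjusted p = 0.729). For FOSB the corresponding value was -0.89 ± 1.15 (adjusted p = 0.858), and it was 0.56 without either 1 h library of Panc-1.

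Set against mock, ANG gave no call among the members, and its comparisons share the mock libraries with those of EGF. After 1 h of ANG, 0 of 7 members passed against mock, where 0.0819% of all genes passed, each of them lower, and FOSL1 was the 1 member at an unadjusted p under 0.05, among 2062 genes. After 5 h of ANG, 0 of 7 passed against 0.112% of all genes, and FOSL1 and JUN were at an unadjusted p under 0.05, among 2391 genes. After 24 h of ANG, 0 of 7 and 0% passed in limma, with 0 members and 202 genes at an unadjusted p under 0.05. FOSL1 was above mock by 1.34 ± 0.41 log2 units at 1 h of ANG (adjusted p = 0.187) and by 1.47 ± 0.41 at 5 h (adjusted p = 0.133). In RPKM FOSL1 was 4.18 and 4.94 times mock at 1 and 5 h of ANG in AsPC-1, and 1.62 and 1.65 times mock in Panc-1. The same libraries also differed in the summed G2/M level. In AsPC-1 it was 834 RPKM in mock and 106, 87.1 and 731 RPKM after 1, 5 and 24 h of ANG. In Panc-1 it was 314 RPKM in mock and 994, 950 and 279 RPKM after the same times. Its part in the FOSL1 differences was not tested. JUN differed by 0.57 ± 0.32 at 1 h of ANG (adjusted p = 0.424) and by 0.75 ± 0.32 at 5 h (adjusted p = 0.269). The median of all genes was -0.13 at 1 h and -0.17 at 5 h of ANG. From 1 to 5 h of ANG, 0 of 7 members and 0% of genes passed, with 0 members and 39 genes at an unadjusted p under 0.05.

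The cell lines differed in 4 of 7 members over the 7 conditions, while 68.8% of all genes passed that test (29.3% higher and 39.6% lower), so this share is no higher than the background. FOS was higher in AsPC-1 in 7 of 7 conditions, at RPKM ratios of AsPC-1 to Panc-1 between 3.96 and 36.6 (median 9.77) and a log2 difference of 2.42 ± 0.22 (adjusted p = 1.7e-05). JUNB was higher in AsPC-1 in 7 of 7, at ratios of 1.15 to 4.99 and 1.35 ± 0.25 (adjusted p = 0.00123). JUN was lower in AsPC-1 in 7 of 7, at ratios of 0.228 to 0.713 and -1.04 ± 0.17 (adjusted p = 5.98e-04), and FOSL2 likewise, at ratios of 0.636 to 0.786 and -0.46 ± 0.063 (adjusted p = 2.0e-04). The median over all genes was -0.13, and these 4 calls held after centring on it and in every fit that left out 1 library.

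FOSL1, FOSB and JUND did not pass between the lines. FOSL1 was higher in AsPC-1 in 5 of 7 conditions, with 0.52 ± 0.22 (adjusted p = 0.0607). It passed at 0.63 with adjusted p = 0.0483 after centring, at 0.67 without either mock library and at 0.63 without either ANG 24 h library. FOSB was higher in AsPC-1 in 6 of 7 conditions, and in the seventh, EGF 1 h, its ratio was 0.248. Its line difference was 0.24 ± 0.31 (adjusted p = 0.520), and it was 0.59 and passed without either EGF 1 h library. JUND had ratios of 0.771 to 1.09 and a line difference of -0.02 ± 0.075 (adjusted p = 0.809), whose sign turned at 0.082 after centring, and also without short genes and without either mock library.

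**Figure D4:**
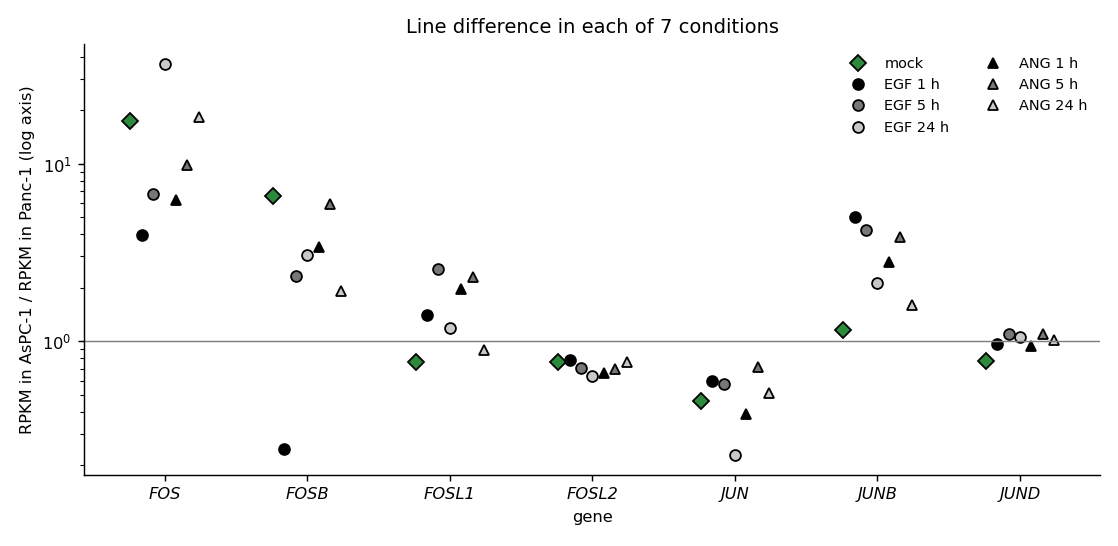
Points give the ratio of RPKM in AsPC-1 to that in Panc-1 on a log axis for each member in each of the 7 conditions, with the line at 1 marking equal levels. All 7 points are above 1 for FOS and JUNB and below 1 for JUN and FOSL2, and FOSB has a single point below 1, at 0.248 for EGF 1 h.

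Other parts of the pathway were read from gene lists. Among 13 tested of 16 other basic leucine zipper partners (ATF, BATF, MAF and related genes), 0 passed against mock at any time of either ligand or between the ligands. At EGF 1 h their median log2 fold change was 0.04 against -0.12 for all genes, with 2 at an unadjusted p under 0.05. ATF3, a stress-induced partner of JUN, measured 2.65 RPKM at EGF 1 h, 1.21 RPKM at ANG 1 h and 1.46 RPKM in mock of AsPC-1. In Panc-1 the same conditions had 104, 51.4 and 12.01 RPKM, and over both lines ATF3 had a difference against mock of 1.79 ± 0.80 at EGF 1 h (adjusted p = 0.306). MAFF, a small MAF protein, measured 17.3 RPKM at EGF 1 h and 9.49 RPKM in mock of AsPC-1, and 29.1 RPKM at EGF 1 h and 8.73 RPKM in mock of Panc-1, with 1.21 ± 0.29 (adjusted p = 0.0972). Over the 6 pairs MAFF was 0.83 ± 0.18 higher with EGF (adjusted p = 0.123). Between the lines 1 partner was higher in AsPC-1, BATF by 2.48 ± 0.12, and 8 of 13 were lower, where 29.3% of all genes were higher and 39.6% lower, including ATF3 by -3.43 ± 0.43 and CREB5 by -1.67 ± 0.17.

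All 18 listed kinases and SRF factors upstream of AP-1 were tested, and 0 passed against mock or between the ligands. Their median at EGF 1 h was -0.14, close to that of all genes, with 5 at an unadjusted p under 0.05. SRF, which drives immediate early genes and is one itself, measured 12.4 RPKM at EGF 1 h and 7.19 RPKM in mock of AsPC-1, and 37.7 RPKM at EGF 1 h and 25.6 RPKM in mock of Panc-1, with 0.62 ± 0.20 (adjusted p = 0.173). RPS6KA4, a kinase of CREB and histone H3, measured 68.2 RPKM at EGF 1 h and 22.1 RPKM in mock of AsPC-1 and 20.9 RPKM at EGF 1 h and 21.6 RPKM in mock of Panc-1, with 0.77 ± 0.45 (adjusted p = 0.422). Between the lines 6 of the 18 were higher and 7 lower in AsPC-1, close to the 68.8% of all genes that passed. MAP2K4, a kinase that activates JNK, was at or under 0.05 RPKM in all 7 AsPC-1 libraries and at 4.94 to 6.18 RPKM in Panc-1 (-2.68 ± 0.073), and SRF was lower in AsPC-1 by -1.41 ± 0.11 and ELK3 higher by 1.84 ± 0.14.

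Of the 12 genes for the decay of AP-1 mRNA and protein, all tested, 0 passed against mock or between the ligands, and their median at EGF 1 h was -0.14, with 2 at an unadjusted p under 0.05. ZFP36, which binds AU-rich elements of short-lived mRNAs, measured 40.1 RPKM at EGF 1 h and 29.1 RPKM in mock of AsPC-1, and 418 RPKM at EGF 1 h and 266 RPKM in mock of Panc-1, with 0.55 ± 0.19 (adjusted p = 0.198). Its relative ZFP36L1 had -0.51 ± 0.18 (adjusted p = 0.208). Between the lines 5 of 12 were higher and 4 lower in AsPC-1, where 68.8% of all genes passed. ZFP36 was lower there by -2.96 ± 0.10, and ZFP36L1 and ZFP36L2 were higher by 1.93 ± 0.098 and 1.26 ± 0.12.

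Of 23 textbook AP-1 target genes, 16 were tested. The list was chosen with earlier results of these data known, so its counts are a description. Over the 6 pairs, 2 of 16 were higher with EGF than with ANG and 0 were lower, against 0.142% and 0.0149% of all genes, with a list median of 0.34 against -0.02 for all genes. HBEGF encodes a further EGFR ligand and PLAU the protease urokinase. In AsPC-1, HBEGF measured 10.85 RPKM in mock and 16.7, 7.70 and 22.9 RPKM after 1, 5 and 24 h of EGF. After the same times of ANG it measured 4.74, 4.96 and 9.42 RPKM. Every ANG library and the EGF 5 h library of AsPC-1 were thus below mock. In Panc-1 it measured 4.5 RPKM in mock, 9.87, 10.2 and 7.40 RPKM with EGF and 4.88, 4.96 and 3.95 RPKM with ANG. EGF was the higher in each pair.

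PLAU in AsPC-1 measured 89.4, 131 and 77.2 RPKM after 1, 5 and 24 h of EGF, against 50.8, 63.6 and 27.1 RPKM with ANG. In Panc-1 it measured 159, 184 and 146 RPKM with EGF, against 105 to 108 RPKM at 1 and 5 h and 96.9 RPKM at 24 h of ANG. PLAU too was higher with EGF in each pair. Both genes were named because they passed this test, so their values per pair only describe the call. The mean differences were 0.99 ± 0.13 for HBEGF (adjusted p = 0.0382) and 0.88 ± 0.11 for PLAU (adjusted p = 0.0382). Both lost the call in limma with no filter on low values (adjusted p = 0.169 for each), after centring (adjusted p = 0.0515 for HBEGF and 0.0677 for PLAU) and over the 4 pairs at 1 and 5 h. They also lost it without genes spanning under 400 bp (adjusted p = 0.0552 for each) and without the trend of variance (0.0628 for each). Without the block of the pair the adjusted p was 0.458 for HBEGF and 0.219 for PLAU. With 1 treated library left out, HBEGF kept the call only without either AsPC-1 1 h library and PLAU only without either AsPC-1 24 h library.

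**Figure D5:**
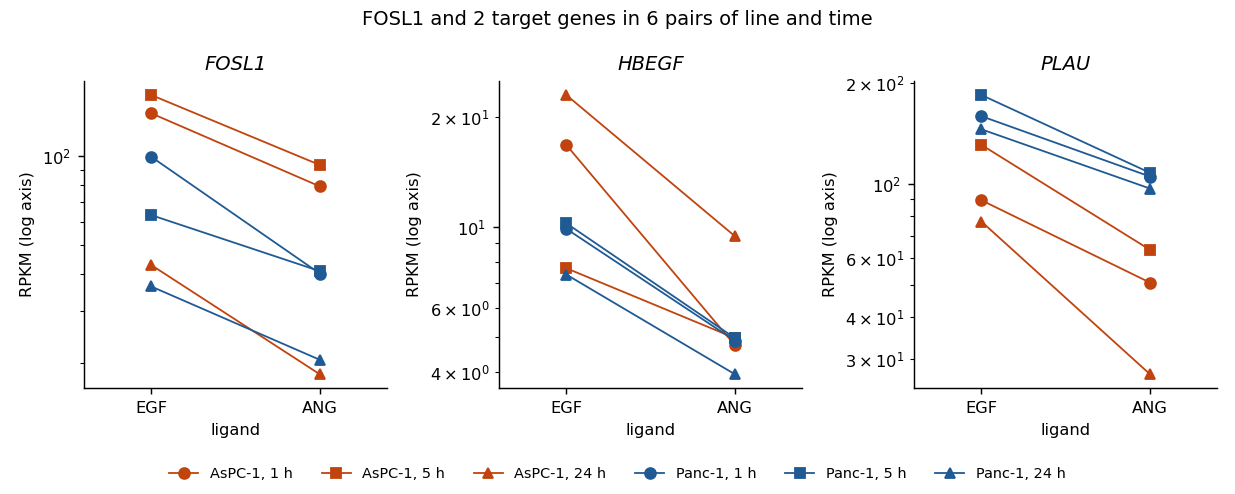
Lines join the EGF and ANG libraries of the same line and time, in RPKM on a log axis, for FOSL1 and for the target genes HBEGF and PLAU, with AsPC-1 in orange and Panc-1 in blue. Each of the 6 lines in each panel falls towards ANG, and the FOSL1 ratios of EGF to ANG lie between 1.55 and 2.48.

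Against mock, PLAU was the 1 target of 16 past the limma test at EGF 5 h, where 0.596% of all genes passed as higher. Its log2 fold change was 1.42 ± 0.32 (adjusted p = 0.0496), a call that held in 2 of 14 leave-one-out fits, those without either ANG 24 h library. PLAU also lost this call with a pseudocount of 0.1 (adjusted p = 0.0506), with no filter on low values (0.0753) and after centring (0.0691). The same was so without the trend of variance (0.0514) and without the 24 h libraries (0.0601). At EGF 1 h 0 of 16 targets passed, with 3 at an unadjusted p under 0.05, although their median of 0.59 was above the -0.12 of all genes. LAMB3, a laminin chain of epithelial adhesion, had 1.13 ± 0.64 (adjusted p = 0.412). The list median was 0.15 at ANG 1 h and 0.26 at ANG 5 h, where 0 of 16 passed and 1 was at an unadjusted p under 0.05 at each time. Between the lines 8 of 16 targets were higher and 7 lower in AsPC-1, where 68.8% of all genes passed. LAMB3 was higher by 6.15 ± 0.34 and LAMA3 by 4.88 ± 0.28, and HMOX1, heme oxygenase, was lower by -5.74 ± 0.11.

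The genes whose pattern was most like each member were ranked by Pearson r of log2(RPKM + 1) over the 14 libraries, after centring each line on its mean, among 10265 genes. The libraries share their mock and their time points, so r is a description. Closest to FOS was EGR1 (r = 0.93), followed by ZNF699 (0.89) and CSRNP1 (0.85). EGR1, another immediate early transcription factor, measured 42.4 RPKM at EGF 1 h and 5.40 RPKM in mock of AsPC-1. In Panc-1 EGR1 had 29.1 RPKM at EGF 1 h and 1.32 RPKM in mock. ZNF699 moved little, with 1.70 RPKM at EGF 1 h and 1.42 RPKM in mock of AsPC-1. In Panc-1 ZNF699 had 5.86 RPKM at EGF 1 h and 4.27 RPKM in mock. KLF10 (0.92), EGR1 (0.91) and NR4A1 (0.89) were closest to FOSB. NR4A1, an orphan nuclear receptor, measured 61.0 RPKM at EGF 1 h and 2.51 RPKM in mock of AsPC-1, and 11.3 RPKM at EGF 1 h and 0.74 RPKM in mock of Panc-1. NR4A1 was also among the 3 closest to FOSL2 (0.86), after SIK1 (0.93) and SERTAD1 (0.88), and to JUND (0.95), beside SERTAD1 (0.95) and KLF10 (0.93).

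FOSL1 was grouped with other genes. TSC22D2 (r = 0.98), MAK16 (0.97) and NDUFAF4 (0.97) were closest, and MAK16 measured 49.9 RPKM at EGF 1 h and 19.2 RPKM in mock of AsPC-1, and 12.5 RPKM at EGF 1 h and 7.55 RPKM in mock of Panc-1. ZNF800 (0.94), ETS2 (0.92) and ZNF121 (0.92) were closest to JUN, and MIDN (0.94), LRRC8A (0.90) and ZC3H12A (0.90) to JUNB. Among the members themselves, r over the same 14 libraries was highest for FOSL2 with JUN (0.91) and lowest for FOS with FOSL1 (0.27). JUNB had 0.45 to 0.65 with the other 6 members and FOS 0.27 to 0.82, and FOS and FOSB had 0.82 and FOSL1 and JUN 0.87.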

How the data were processed

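RNA sequencing of total RNA (TRIzol) was analysed from 14 libraries, 1 per line and condition, grouped by the labels. The authors deposited log2 RPKM per gene for 23040 genes, per the file headers, and per the submitters' processing notes the build is hg19. The aligner, counting tool, annotation and use of strand were not given in the sources used here. Values were turned back to RPKM and the floor, log2 of -8.966, was read as 0. Depth came from the steps of genes spanning at most 150 bp, of which 99.6 to 100% were whole within 0.1, and 1 read in 2 kb was worth 0.0211 to 0.0450 RPKM. Short genes (span under 400 bp) took 5.11 to 17.2% of reads.

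Models were fitted in limma (version 3.58.1, R version 4.3.3, variance trend by mean level) to log2(RPKM + 1) of the 13427 genes reaching 1 RPKM in 2 or more libraries, with Benjamini-Hochberg adjustment over all of them and a threshold of 0.05. This scale understates changes of low genes. They were line plus condition (14 libraries), which also gave the lines, and pair plus ligand (12 libraries), with line or time interactions. The procedure was tested on simulated data. Alternatives were another pseudocount, no filter, median centring, no short genes, no trend, no 24 h libraries, no block and each library left out. The members and lists were chosen with earlier results of these data known. A gene of the target list is not reported here. The named genes were the members and, of each list, up to 3 past the test with the largest change, or 2 where none passed, plus the 3 most like each member. Sequences and motifs are from RefSeq (GRCh38.p14).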

Additional observations from a re-analysis of the deposited data

Results flagged for a closer look

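JUNB differed between the lines in its ANG against mock contrast, because every ANG library was above mock in AsPC-1 and below it in Panc-1. The mean log2(RPKM + 1) difference over 1, 5 and 24 h was 0.35 in AsPC-1 and -0.76 in Panc-1, a gap of 1.11. JUND did the same at a smaller size, with 0.23 in AsPC-1 and -0.15 in Panc-1, a gap of 0.38. These differences between the lines were not tested, and each rests on 1 mock library per line. No group had 4 or more libraries, so single libraries could not be checked against the spread of their group.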

How the results depend on the processing

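Members past the test at EGF 1 h against mock numbered 3 as reported (89 genes in all), 0 with a pseudocount of 0.1 or no filter (52 genes each) or without the 24 h libraries (0 genes), 1 centred (35), 4 without short genes (131) and 2 without the trend (79). At EGF 5 h they numbered 2 (567 genes), but 1 with no filter (369), 0 centred (167) and 1 without the 24 h libraries (304). Over the 6 EGF and ANG pairs they numbered 1 (21 genes), but 0 with no filter (0), with no block of the pair (1) or over 4 pairs without the 24 h libraries (0), an alternative chosen after seeing the data. The cause was not tested. With 1 library left out the counts ranged from 0 to 1 for EGF 1 h against mock, EGF 1 h against ANG 1 h, EGF 5 h against EGF 1 h and the 6 pairs, from 0 to 2 for EGF 5 h against mock and from 4 to 5 for the lines, and stayed at 0 in the other 9 comparisons. For the pairs, which hold no mock library, no gene passed at all in 8 of the 12 fits without 1 treated library. Each of those fits loses a whole pair. For EGF 1 h against mock, no gene passed at all in 11 of 14 leave-one-out fits. The lone library left at a condition is then assumed to vary like the others. Of 75 fold changes, refitted in 1487 combinations of fold change and setting in all, 72 never changed sign. The exceptions were JUND between the lines (0.082 centred, 0.00061 without short genes, -0.046 to 0.035 leave-one-out), FOSB for the line interaction (-1.71 to 0.56 leave-one-out) and FOSL1 for 1 h minus 24 h (-0.0056 centred, -0.18 to 0.30 leave-one-out). Each condition has 1 library, so the pair of line and time was the one block available. Few reads stand behind FOS and FOSB where they are under 1 RPKM.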
